A study of Mus musculus with 5 samples.

Results

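The data concern 9 macrophage genes of the mouse testis: the complement genes C1qa, C1qb and C1qc, the growth factor receptor gene Csf1r, the lysosomal genes Cd68 and Lyz2, the mannose receptor gene Mrc1, and the class II antigen presentation genes Cd74 and H2-Aa. They were taken by name from the deposited expression table, in which the 9 genes have 16 transcript rows out of 55350, or 9 of 22407 named genes. All 16 rows were found by accession in the binding table. The compared RNA libraries came from testes of 3-month-old Taf7l knockout males (Taf7l-/Y), which lack an X-linked paralogue of the general transcription factor subunit TAF7, and of wild-type mice of the same age. Each was made from polyadenylated RNA of a pool of 6 extracts, so that animals cannot be told apart within a library. TAF7L and RNA polymerase II (Pol II) were mapped by chromatin immunoprecipitation (ChIP) in 1 library each, labelled as wild-type testis of 3-month-old mice. The ChIP protocol speaks of tissue of 10 mice and of both genotypes, and knockout ChIP was not analysed here. The labels used here do not name the strain or the deleted part of Taf7l.

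Macrophages of the testis lie in the interstitium beside the steroid-producing Leydig cells and on the wall of the seminiferous tubules. In mice the interstitial cells are known for the CSF1 receptor and the mannose receptor CD206 (Mrc1), with little class II, whereas those on the tubule wall are known for class II molecules with little CD206. C1q, made largely by macrophages, binds antibody complexes and dying cells and starts the classical complement cascade. The invariant chain (Cd74) holds class II molecules such as H2-A until they reach the compartment where peptides are loaded.

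Both RNA libraries were single, so every difference below is described by its size and has no replicate check or p-value. The authors' table gives each transcript a mean signal and a standard deviation (SD) within the library. That SD is not a spread between animals. The signal's unit is not named in the header, so the order of signals between genes is not read as an order of RNA amounts. That order is used to choose which list genes are named and to set ranges of signal. Sums, shares and ratios over several genes are given to set the 2 libraries beside each other. Genes with high signals weigh most in such sums. Change is log2((knockout + 1)/(wild type + 1)), and a gene was called higher or lower in the knockout where it differed by at least 2-fold on that scale. Of 12799 genes with a mean signal of both libraries of at least 1, 7.27% were called higher and 7.22% lower, and the median change was 0.40. Multiplying the knockout signals by 0.711 set that median to 0. Taf7l itself had a signal of 2.04 ± 0.60 in the knockout and 13.2 ± 1.56 in the wild type (SD within the library, n = 1 each). The protamine and transition protein genes Prm1, Prm2, Tnp1 and Tnp2, which late spermatids use to pack their chromatin, made up 2.13% of the signal of named genes in the knockout and 11.1% in the wild type.

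Promoters of 4 of the genes are shown because the complement pair and the mannose receptor gene were higher in the knockout library while the class II gene was not, and because the binding table scores promoters. RefSeq windows of build GRCm38.p6, from 250 bases before to 50 bases after the start site, were present for 6 of the 9 genes. Those of Cd68 and Lyz2, also higher in the knockout library, are not printed. Sequences run 5′ to 3′ on the gene's strand. Capitals mark 2 motifs on either strand, GAGGAA (or TTCCTC), the core letters bound by the macrophage factor PU.1, and CCAAT (or ATTGG), the letters of the Y box of class II promoters. 
C1qb, chr4:136886151-136886450, minus strand: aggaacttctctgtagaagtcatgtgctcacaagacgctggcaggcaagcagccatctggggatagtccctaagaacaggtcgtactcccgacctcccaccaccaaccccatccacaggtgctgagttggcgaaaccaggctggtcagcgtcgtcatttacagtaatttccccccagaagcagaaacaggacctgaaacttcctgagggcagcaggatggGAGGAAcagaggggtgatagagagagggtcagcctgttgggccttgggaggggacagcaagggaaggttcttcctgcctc
C1qc, chr4:136892865-136893164, minus strand: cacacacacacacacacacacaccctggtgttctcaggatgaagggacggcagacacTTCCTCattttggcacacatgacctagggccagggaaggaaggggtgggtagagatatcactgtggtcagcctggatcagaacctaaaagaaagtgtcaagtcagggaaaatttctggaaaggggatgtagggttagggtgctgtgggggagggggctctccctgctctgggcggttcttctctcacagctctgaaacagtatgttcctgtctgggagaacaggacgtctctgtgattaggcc
Mrc1, chr2:14229164-14229463, plus strand: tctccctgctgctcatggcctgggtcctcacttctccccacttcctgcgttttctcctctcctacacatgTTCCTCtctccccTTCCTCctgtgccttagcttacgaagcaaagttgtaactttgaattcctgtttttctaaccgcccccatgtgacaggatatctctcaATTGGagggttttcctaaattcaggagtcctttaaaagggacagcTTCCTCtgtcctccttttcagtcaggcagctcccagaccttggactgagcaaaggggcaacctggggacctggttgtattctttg
H2-Aa, chr17:34287774-34288073, minus strand: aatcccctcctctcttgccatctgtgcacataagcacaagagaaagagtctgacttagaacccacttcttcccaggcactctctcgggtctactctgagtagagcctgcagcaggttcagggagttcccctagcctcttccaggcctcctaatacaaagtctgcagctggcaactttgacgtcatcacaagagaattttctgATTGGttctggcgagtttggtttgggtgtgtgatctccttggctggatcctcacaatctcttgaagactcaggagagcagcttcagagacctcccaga

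GAGGAA was found in 4 of the 6 windows, those of C1qb, C1qc, Cd68 and Mrc1, and in 28.3% of all 32851 promoter windows of the table. In C1qb it began 30 bases before the start site, in C1qc 193 bases before it, and in Mrc1 it stood 3 times. CCAAT was found in the windows of Cd68, H2-Aa and Mrc1 and in 37.4% of all windows. The single match in H2-Aa began 48 bases before the start site on the opposite strand, and the window of H2-Aa held no GAGGAA. None of the 6 windows held TATAAA, the core letters of the TATA box, which 13.6% of all windows held. The Lyz2 window held none of the 3 motifs although Lyz2 was called higher, so GAGGAA did not go with every increase. These matches describe letters in the windows and are not evidence of binding.

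The macrophage genes did not all differ in the same direction. All 3 C1q chains, Csf1r, Cd68, Lyz2 and Mrc1 were higher in the knockout library, by 1.86-fold to 2.81-fold in signal, whereas Cd74 and H2-Aa were lower, at 0.805 and 0.731 of the wild-type signal. Changes above 0 were thus found for 7 of 9 genes, against 72.5% of all genes compared. The count of directions alone therefore does not set the 9 genes apart. On the scale with pseudocount 1, C1qa, C1qc and Lyz2 were called higher, 3 of 9 genes against 7.27% of all genes, and 0 of 9 were called lower, against 7.22%. The median change of the 9 genes was 0.88, beside 0.40 for all genes. Among the 6974 genes within the wild-type signal range of the 9, the median was 0.50. Of those genes 8.22% were called higher and 2.98% lower. By the authors' deposited table of log2 ratios, without that pseudocount, 5 of 9 were past 2-fold on the higher side, against 18.3% of all genes, and 0 on the lower side, against 9.49%. After the knockout signals were scaled to a median change of 0, 0 of 9 were called higher, against 1.03% of all genes, and 0 lower, against 12.6%. The direction of all 9 genes was unchanged by that scaling. In a bulk library, more cells of a type and more RNA per cell cannot be told apart.

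**Figure D1:**
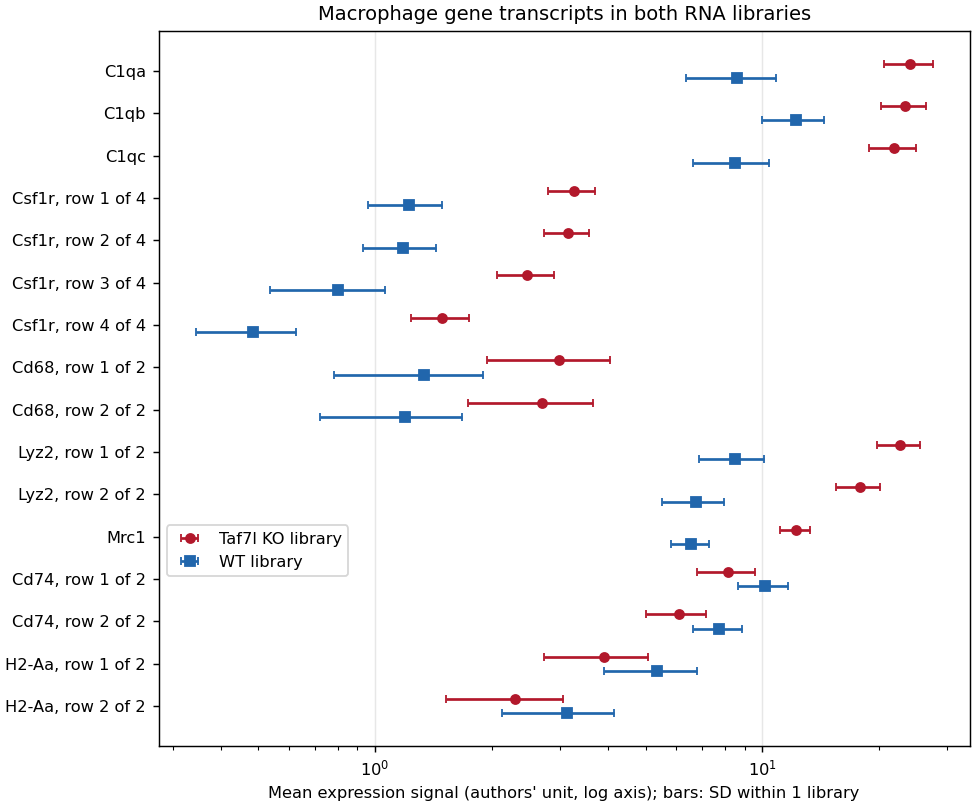
Mean expression signal of the 16 transcript rows of the 9 macrophage genes (log axis, authors' unit) in the Taf7l KO library (circles) and the WT library (squares), 1 library each, with bars for the SD within the library. The 12 rows from C1qa to Mrc1 lie higher in the KO library, and the 4 rows of Cd74 and H2-Aa lie lower with overlapping bars.

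All 3 C1q chains were higher in the knockout library. C1qa, the A chain, had a signal of 24.1 ± 3.44 in the knockout and 8.58 ± 2.24 in the wild type, a log2 change of 1.39 that was larger than that of 98.8% of all genes. C1qc, the C chain, had 21.9 ± 3.03 in the knockout and 8.51 ± 1.89 in the wild type, a log2 change of 1.27. C1qb, the B chain, had 23.4 ± 3.08 in the knockout and 12.2 ± 2.21 in the wild type, a log2 change of 0.88. The chains assemble in equal numbers into 1 protein, and their genes stand side by side on chromosome 4 within 18700 bp (136436060 to 136454759, mm9, with C1qb first, then C1qc and C1qa). The ratio of C1qa to C1qb signal was 1.03 in the knockout and 0.704 in the wild type. The within-library SDs of the 3 log2 changes lay between 0.30 and 0.39, so that unequal changes of the chains are not shown.

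Csf1r and Lyz2 had nearly equal fold differences. Csf1r encodes the receptor for CSF1 and IL-34, on which most tissue macrophages depend for survival. Its signals were 3.25 ± 0.45 in the knockout and 1.22 ± 0.264 in the wild type, 2.66-fold higher, and the log2 change of 0.94 with pseudocount 1 lay just under 2-fold because the signals are low. The authors' deposited table gave 1.41. The 4 transcript rows of Csf1r (chromosome 18, 61265225 to 61290793, mm9) were 2.66-fold to 3.09-fold higher in the knockout. Lyz2 encodes lysozyme M, a bacteriolytic enzyme of macrophages and neutrophils. Its signals were 22.7 ± 2.90 in the knockout and 8.50 ± 1.63 in the wild type, 2.67-fold higher, a log2 change of 1.32. Lyz2 has a near-identical neighbour, Lyz1, which the longer of the 2 Lyz2 rows overlaps by 3400 bp on chromosome 10. Lyz1 had 4.65 ± 1.06 in the knockout and 1.82 ± 0.656 in the wild type, and reads of both genes may be shared.

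Cd68 and Mrc1 showed smaller log2 changes with pseudocount 1. By the authors' deposited table the log2 ratio was 1.16 for Cd68, above the 0.94 of C1qb, and 0.90 for Mrc1. Cd68, which encodes the lysosomal glycoprotein macrosialin, had 2.99 ± 1.04 in the knockout and 1.34 ± 0.557 in the wild type. The fold difference was 2.23, and the log2 change of 0.77 with pseudocount 1 had a within-library SD of 0.51, the widest of the 9 genes. The mannose receptor gene Mrc1 (chromosome 2, 14151040 to 14253650, mm9), which takes up glycoproteins and marks interstitial macrophages, had 12.2 ± 1.10 in the knockout and 6.56 ± 0.747 in the wild type. Its log2 change of 0.80 had the smallest within-library SD, 0.19, and was 0.40 above the median of all genes.

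The class II genes had changes of opposite sign. Cd74 (chromosome 18, 60963502 to 60972306, mm9) had 8.17 ± 1.39 in the knockout and 10.1 ± 1.48 in the wild type, a log2 change of -0.28. H2-Aa, which encodes the alpha chain of the class II molecule H2-A (chromosome 17, 34419695 to 34424716, mm9), had 3.90 ± 1.16 in the knockout and 5.33 ± 1.44 in the wild type, a log2 change of -0.37. Both differences were smaller than the sum of the within-library SDs. Relative to the median of all genes the changes were -0.69 and -0.77. Second rows of the genes gave log2 changes of -0.30 for Cd74 and -0.33 for H2-Aa. The summed signal of the C1q chains was 69.3 in the knockout and 29.3 in the wild type, while that of Cd74 and H2-Aa was 12.1 in the knockout and 15.5 in the wild type. The ratio of these sums was therefore 5.75 in the knockout and 1.89 in the wild type. The genes in it were set against each other with their directions known, so the ratio describes those directions again and adds no support.

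The 12 transcript rows from C1qa to Mrc1 differed by more than the sum of both within-library SDs, and the 4 rows of Cd74 and H2-Aa by less. Rows of a gene share reads, and this spread within single libraries does not show for any of the 9 genes a difference between genotypes.

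Other genes of macrophages and their pathways were read from 6 lists of 111 genes in all, of which 109 were in the table and 64 reached a mean signal of 1. Of these 64 genes 23 were called higher and 3 lower, against 7.27% and 7.22% of all genes. Their median change was 0.79 beside 0.40 for all genes. After scaling to a median of 0 the counts were 3 higher and 3 lower, against 1.03% and 12.6% of all genes. The same shares stand beside the counts of each list below. A gene that is low in the wild type could reach the mean of 1 through its knockout signal alone, so the counts favour higher genes among those near that limit.

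**Figure D2:**
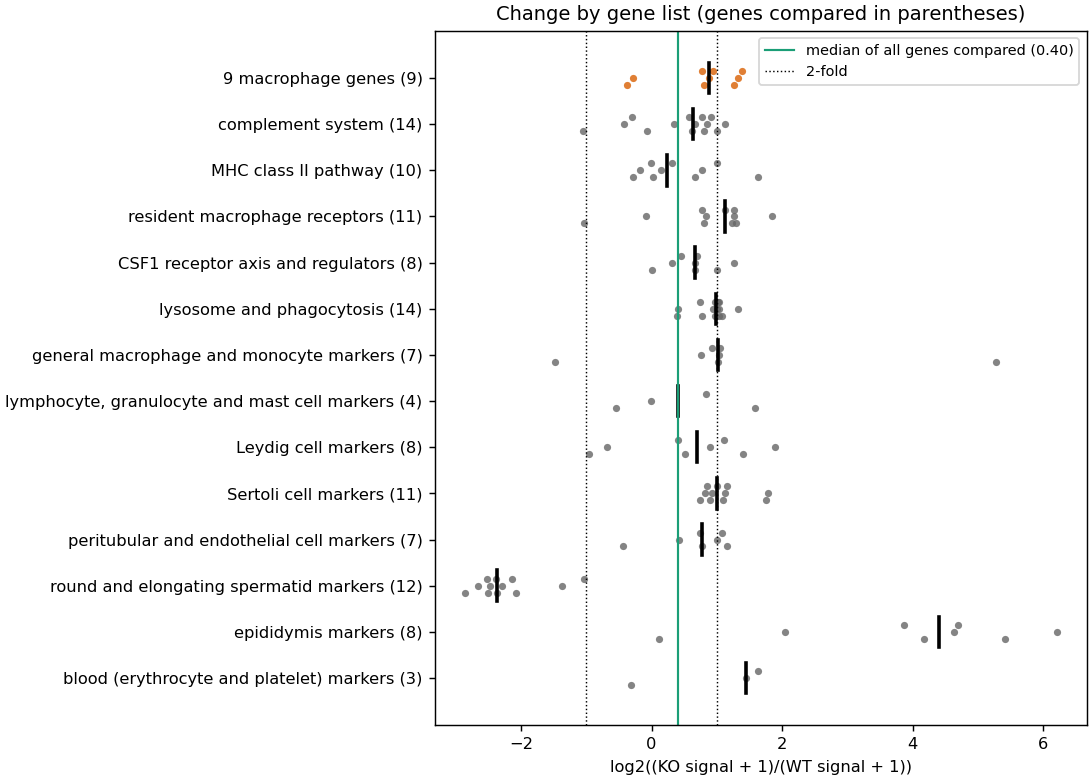
Change of each gene compared, log2((KO + 1)/(WT + 1)), for the 9 macrophage genes (orange) and 13 gene lists (grey), with black bars for list medians, a green line for the median of all genes (0.40) and dotted lines at 2-fold. The resident macrophage, lysosome and Sertoli lists have medians near 1, the class II list has 0.23, and spermatid markers lie below -1.

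The class II pathway list held both directions of difference. Of its 10 genes compared, 2 were called higher and none lower. Its median was 0.23, which is -0.17 relative to the median of all genes. H2-Eb1, the beta chain of the class II molecule H2-E, had 2.27 ± 0.671 in the knockout and 2.99 ± 0.71 in the wild type. The H2-A beta chain gene H2-Ab1 and the DM genes H2-DMa and H2-DMb1, which edit the peptides, were named after their values were seen, with log2 changes of 0.15, -0.17 and 0.03. Ctss, a cathepsin gene that cuts the invariant chain, and Rfxap, a subunit of the factor that binds class II promoters, were named in the same way, with log2 changes of 1.00 and 0.66. Ifi30, a thiol reductase that opens disulphide bonds of antigens, had 15.8 ± 2.97 in the knockout and 4.41 ± 1.69 in the wild type, a log2 change of 1.63. Ctsl, a cathepsin gene, had 289 ± 9.54 in the knockout and 167 ± 5.84 in the wild type, a log2 change of 0.78. Ciita, the master regulator of class II transcription, was also named after its values were seen. It had signals of 0.008 in the knockout and 0.009 in the wild type and was not compared.

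Receptors and secreted products of resident macrophages had the highest median of the 6 lists. Of 11 genes compared, 6 were called higher and 1 lower, and the median was 1.12. Cbr2, a carbonyl reductase gene expressed by resident macrophages, had 17.1 ± 3.33 in the knockout and 4.01 ± 1.33 in the wild type, a log2 change of 1.85, and was past 2-fold after scaling. Gas6, which encodes a bridge between dying cells and the receptors Axl and Mertk and is also made by other cell types, had 86.3 ± 4.43 in the knockout and 35.9 ± 2.83 in the wild type. Folr2, a folate receptor gene of resident macrophages that was named after its values were seen, had 4.06 ± 1.21 in the knockout and 1.11 ± 0.469 in the wild type. Msr1, a scavenger receptor gene, was called lower, with 1.68 ± 0.776 in the knockout and 4.52 ± 1.36 in the wild type, a log2 change of -1.04.

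Genes around the CSF1 receptor showed a smaller median. Of 8 compared, 2 were called higher and none lower, and the median was 0.66. Tyrobp, a signalling adaptor of myeloid receptors, had 9.25 ± 3.23 in the knockout and 3.26 ± 1.82 in the wild type, a log2 change of 1.27. Cebpb, a transcription factor gene of myeloid cells, had 2.27 ± 0.836 in the knockout and 2.26 ± 0.842 in the wild type. The gene of PU.1, listed under its older name Sfpi1 and named after its values were seen, had 1.38 ± 0.78 in the knockout and 0.595 ± 0.445 in the wild type, which left it just under the mean of 1.

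In the lysosome and phagocytosis list all 14 genes compared had changes above 0, against 72.5% of all genes. Of the 14, 7 were called higher, against 7.27% of all genes, and none lower, against 7.22%. The list median was 0.99. Grn, the progranulin gene, had 30.5 ± 2.76 in the knockout and 11.7 ± 1.30 in the wild type, a log2 change of 1.32. Lamp1, a lysosomal membrane gene of most cell types, had 146 ± 3.94 in the knockout and 111 ± 3.04 in the wild type, a log2 change of 0.39 that was the smallest of the list. After scaling none of the 14 was past 2-fold.

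The complement list, without C1q, had 14 genes compared, of which 2 were called higher and 1 lower, and the median was 0.64. C1s, a protease of the C1 complex into which C1q assembles, had 4.86 ± 0.605 in the knockout and 1.68 ± 0.365 in the wild type, a log2 change of 1.13. Cd46, which encodes a complement regulator that mouse sperm carry on the acrosome, had 1.62 ± 0.861 in the knockout and 4.41 ± 0.992 in the wild type, a log2 change of -1.05. Calr, an endoplasmic reticulum chaperone gene that can also act as a receptor for C1q, had 524 ± 14.2 in the knockout and 330.3 ± 8.96 in the wild type, a log2 change of 0.66.

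General macrophage and monocyte markers were mostly low in both libraries, and only 7 of 20 were compared. The classical surface markers Emr1 (F4/80), Itgam (CD11b), Itgb2 and Ptprc (CD45) had signals under 1 in both. Named after their values were seen, Emr1 had 0.98 ± 0.593 in the knockout and 0.472 ± 0.37 in the wild type. Ptprc likewise had 0.163 ± 0.214 in the knockout and 0.051 ± 0.147 in the wild type. These surface markers therefore give the macrophage label little support, and Csf1r was also low, at 1.22 in the wild type. Not all markers of the list were as low. Mpeg1 and Cx3cr1, named after their values were seen, were called higher. Mpeg1 had 8.35 ± 0.907 in the knockout and 3.52 ± 0.608 in the wild type. Cx3cr1 had 3.06 ± 0.632 in the knockout and 0.984 ± 0.346 in the wild type. Of the 7 genes compared, 4 were called higher and 1 lower, and the median was 1.02. Apoe, a lipid carrier gene of macrophages and other cells that was named after its values were seen, had 171 ± 9.06 in the knockout and 83.9 ± 6.46 in the wild type. Aif1 (IBA1) had 97.3 ± 6.81 in the knockout and 274 ± 9.57 in the wild type, a log2 change of -1.48, opposite to Csf1r. Aif1 had the highest signal of the list, and which cells gave that signal was not tested. Cd52, expressed both by leukocytes and by epididymal epithelium, had 160.3 ± 16.1 in the knockout and 3.17 ± 1.78 in the wild type, a log2 change of 5.27. Without Cd52 and Aif1 the median over the 6 lists was also 0.79.

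Markers of other cells of the testis differed between the libraries in both directions. Of 11 Sertoli cell markers compared, 6 were called higher and none lower, and the summed signal of the list was 1890 in the knockout and 921 in the wild type. Clu had 1076 in the knockout and 564 in the wild type, Amh had 8.24 in the knockout and 1.69 in the wild type, and Gata4 had 6.23 in the knockout and 3.28 in the wild type. The summed signal of the 9 macrophage genes was 122 in the knockout and 62.4 in the wild type, 1.96-fold, beside 2.05-fold for the Sertoli list and 2.06-fold for the peritubular and endothelial list. Of the peritubular and endothelial genes, 3 of 7 genes compared were called higher and none lower, with Acta2 at 67.8 in the knockout and 30.0 in the wild type and Vwf at 2.32 in the knockout and 3.52 in the wild type. After scaling none of these 7 was called higher. The sum of that list is mostly the smooth muscle gene Acta2. Of the endothelial genes, named after their values were seen, Cdh5 had 3.20 ± 0.66 in the knockout and 2.13 ± 0.533 in the wild type, and Pecam1, Kdr and Tek had signals under 1 in both libraries. The Leydig list had 3 of 8 called higher and none lower, but 2 higher and 2 lower after scaling and 1 lower by the authors' deposited table, with sums of 1590 in the knockout and 1940 in the wild type. Cyp11a1 had 151 in the knockout and 40.0 in the wild type, while Insl3 had 1052 in the knockout and 1686 in the wild type and Star had 11.7 in the knockout and 23.5 in the wild type. All 12 spermatid markers were called lower, with sums of 12200 in the knockout and 67900 in the wild type. The part of these differences in the macrophage values was not tested.

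Markers of blood and epididymis also differed between the libraries. Of 3 blood markers compared, 2 were called higher and none lower, with sums over 6 markers of 120 in the knockout and 44.5 in the wild type. Hbb-b1, a beta-globin gene whose reads near-identical copies can share, had 44.7 ± 4.19 in the knockout and 13.8 ± 2.80 in the wild type. Alas2, a haem synthesis gene of erythroid cells, had 3.76 ± 0.672 in the knockout and 4.92 ± 0.754 in the wild type, a log2 change of -0.31. Of 12 epididymis markers, a list that holds genes picked for their increase in these libraries, 8 were compared and 7 were called higher and none lower, with sums of 222 in the knockout and 2.24 in the wild type. The largest difference was that of Crisp1, with 75.9 ± 6.72 in the knockout and 0.042 ± 0.128 in the wild type, while Defb2 was listed at 0 in the wild type. Rnase10 had 1.58 ± 0.515 in the knockout and 1.36 ± 0.414 in the wild type. Lcn5, Lcn8, Gpx5 and Cst11, also known from the epididymis and named after their values were seen, had signals under 1 in both libraries. The part of blood and epididymal RNA in the macrophage values was not tested.

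Markers of other leukocytes mostly had low signals. Of 20 lymphocyte, granulocyte and mast cell markers in the table, 16 had signals under 1 in both libraries, and their sum was 9.04 in the knockout and 6.80 in the wild type. S100a8, a neutrophil gene, had 2.09 ± 2.32 in the knockout and 0.031 ± 0.249 in the wild type, and its SD exceeded its mean in both. The T cell receptor complex genes differed in opposite directions. Cd3d had 2.08 ± 0.993 in the knockout and 3.51 ± 0.856 in the wild type, while Cd3e, named after its values were seen, had 1.66 ± 0.761 in the knockout and 0.491 ± 0.321 in the wild type.

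TAF7L was not assigned to the promoter of any of the 9 macrophage genes. In the binding table, where a score above 0 in a promoter, proximal or distal class was read as assigned ChIP signal, 0 of 9 genes had a TAF7L promoter score, against 54.5% of the 12799 genes compared. Pol II had a promoter score at 1 of 9, C1qb with 34.8, against 85.8% of genes, and the median score of genes with one was 374. Promoter scores were less frequent at genes of low signal. Among 6974 genes within the wild-type signal range of the 9, from 1.22 to 12.2, 51.1% had a TAF7L and 84.0% a Pol II promoter score. Neither score is replicated, the sources used here do not define the classes, and the IgG control library has no column of its own.

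**Figure D3:**
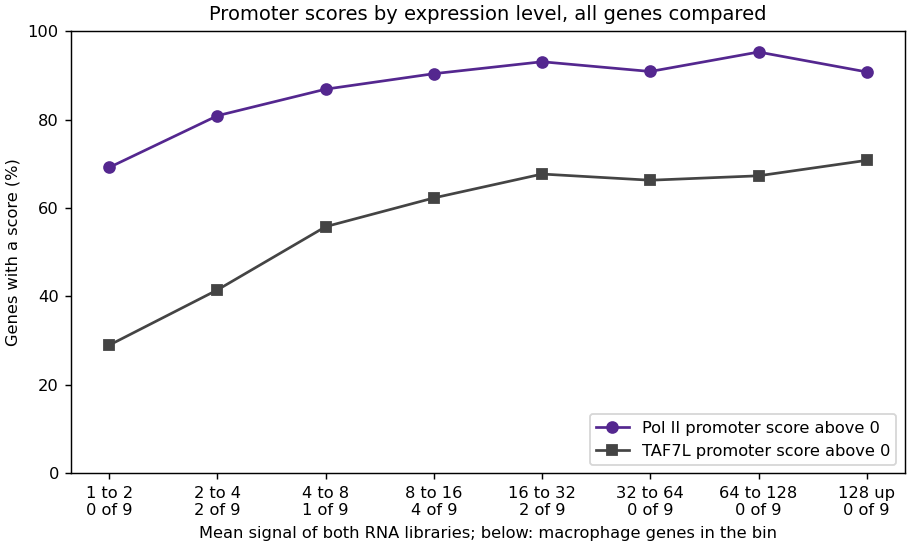
Share of all genes compared with a TAF7L (squares) or Pol II (circles) promoter score above 0, in bins of the mean signal of both RNA libraries, with the number of the 9 macrophage genes in each bin under the axis. In the bin from 8 to 16, which holds 4 of the 9 genes, 62.3% of genes had a TAF7L and 90.4% a Pol II promoter score.

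The share of genes with a TAF7L promoter score differed between the lists. None of the 11 Sertoli, 8 Leydig or 7 peritubular and endothelial genes compared had one, whereas a Pol II promoter score was given to 9 Sertoli, 4 Leydig and 6 peritubular and endothelial genes. Of the 12 spermatid markers, 2 had a TAF7L and 12 a Pol II promoter score, so a low TAF7L share was not particular to somatic lists. Over all genes compared the shares were 54.5% and 85.8%. Among the macrophage lists, a TAF7L promoter score was given to 5 of 10 class II pathway genes, 3 of 14 complement genes, 2 of 8 genes around the CSF1 receptor, 2 of 14 lysosome genes, 0 of 11 resident macrophage genes and 0 of 7 general markers. A Pol II promoter score was given to 8 class II pathway, 8 complement, 6 CSF1 receptor, 12 lysosome, 3 resident macrophage and 4 general genes. The share of macrophages in the chromatin was not measured.

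Proximal or distal scores of C1qc, Cd68, Cd74 and H2-Aa equalled the promoter score of a neighbouring gene, and the share of all genes with such equal scores was not computed. In the proximal class 3 of the 9 genes had a TAF7L score, against 33.7% of genes, and 4 had a Pol II score, against 63%. In the distal class these were 6, against 53.6%, and 7, against 77%. At Cd68 (chromosome 11, 69477872 to 69479564, mm9) the proximal TAF7L score of 155 equalled the promoter score of Mpdu1 and Supl15h. The proximal Pol II score of Cd68, 904, equalled the promoter score of Eif4a1, a translation initiation factor gene with signals of 80.6 in the knockout and 40.3 in the wild type. The distal Cd68 scores of 92.4 for TAF7L and 659 for Pol II equalled those of the Senp3 promoter. At Cd74 the distal scores, 82.3 for TAF7L and 506 for Pol II, equalled those of the promoter of Rps14, a ribosomal protein gene. At H2-Aa the distal scores, 55.4 for TAF7L and 198 for Pol II, equalled those of the promoter of H2-Ab1.

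**Figure D4:**
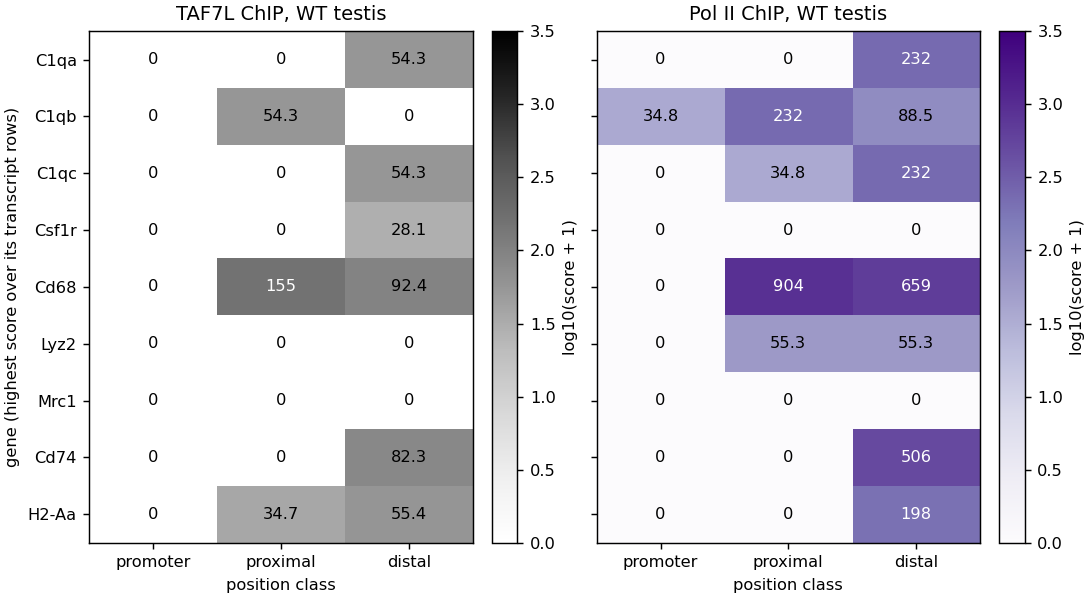
TAF7L (left) and Pol II (right) ChIP scores of the 9 genes in 3 position classes in wild-type testis, each the highest over the gene's transcript rows, with shading for log10(score + 1) and the score printed in each cell. The TAF7L promoter column is 0 for all 9 genes, and the Pol II promoter column is above 0 only for C1qb.

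Within the C1q cluster the same values recurred. The TAF7L score of 54.3 stood in the proximal class of C1qb and in the distal class of C1qc and C1qa, and also in the distal class of the neighbouring receptor gene Ephb2. The Pol II score of 232 was placed in the same way, and the Pol II score of 34.8 at the C1qb promoter equalled the proximal score of C1qc. Equal scores can be 1 signal assigned to several genes, so these 3 genes do not give independent observations. Lyz2 had no TAF7L score in any class and a Pol II score of 55.3, proximal in 1 row and distal in the other, which Lyz1 shared. Csf1r had a distal TAF7L score of 28.1 and no Pol II score. Mrc1 had a score of 0 in all 6 columns, which held for 4.02% of all genes compared.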

How the data were processed

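RNA libraries of Taf7l knockout and wild-type testis and ChIP libraries of wild-type testis were used, 1 per group. Bowtie, TopHat, Cufflinks and the build mm9 are named in the submitters' processing notes, without versions, and no peak caller is named there. The labels give 100 to 200 M reads for an RNA library. Per the file headers the authors deposited, for each transcript and RNA library, the mean of an expression signal with its SD. They added 1 ratio of SD to mean and 1 log2 ratio per transcript. The deposited log2 ratio has the wild type on top and its sign was turned here. The deposited ChIP score has no stated definition, and 4 transcripts had no distal score. The parts over which the SD was taken are not named, and the largest deposited ratio of SD to mean was 8.

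A gene was given the transcript row with the highest mean. Names were matched through RefSeq synonyms (GRCm38), and 7230 rows with clone names were left out. Genes whose mean over both libraries reached 1 were compared on log2(signal + 1), which understates the change of low genes. The steps were tested on simulated data. With 1 library per group no test was possible. The 9 genes and all lists were chosen with earlier results of these data known. Named genes are the 9, and of each list the highest signal, the largest increase and the largest decrease; others are marked in the text. Prm1, Prm2, Spaca1 and Hba-a2, which the rule also takes, are given only in their lists' sums. Strand of counting was not stated. Python 3.11 was used.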

Additional observations from a re-analysis of the deposited data

How the results depend on the processing

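All 9 directions were the same under the 7 alternatives, where computed. Changes of the pseudocount or the filter cannot reverse a sign, so only scaling and the handling of transcript rows could have done so. Of 60 recomputed changes of the 9 genes, 51 moved by less than the within-library SD and 9 by more. Many of the 51 could not move, because a filter leaves a gene's own value as it is. The choice of row likewise leaves genes with a single row as they are. The larger moves came from scaling and, for Csf1r, also from the pseudocount. At a mean of at least 5 only 6 of the 9 genes were compared. The number of the 9 at least 2-fold higher was 3, and 5 with a pseudocount of 0.1, 5 by the authors' deposited log2 ratio and 0 after scaling, where the median change of the 9 was 0.42. For all genes, those higher numbered 930, and 2082, 2347 and 132 under the same settings, and those lower 924, and 1609 after scaling. For the 6 macrophage lists, those higher numbered 23, and 35, 36 and 3, or 15 at a mean of at least 5, where 1 was lower in place of 3. With promoter and proximal classes joined, 3 of the 9 genes had a TAF7L score and 4 a Pol II score. The share of all genes for the joined classes was not computed, so these counts cannot be called low or high. No paired analysis was possible because each group has 1 library. Transcripts with signals under 1 limit what can be said of the leukocyte markers.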
